A study of Mus musculus with 6 samples.

Results

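The TIM and TOM genes, which encode the translocases of the inner and outer mitochondrial membranes, were taken as every row of the deposited table whose symbol is Timm or Tomm followed by a digit. This gave 25 of 21958 genes, 15 Timm genes for the inner membrane side and 10 Tomm genes for the outer membrane side. Timmdc1, an assembly factor of respiratory complex I, has no digit after its prefix and was not a member. RNA came from RAW264.7, a macrophage-like cell line of mouse, in 2 groups of 3 libraries that the titles call biological replicates. In the first group, cells exposed to lipopolysaccharide (LPS) were co-cultured with BMSCs, and in the second they had LPS alone. The design text names a printed polycaprolactone (PCL) scaffold that carries BMSCs and bFGF, while the sample labels name only the co-culture, and they give no species for the BMSCs and no time. Every library had LPS, so each difference below is one between co-culture and LPS alone. RAW264.7 is 1 cell line, and nothing in the labels says from which separate cultures the libraries came, so p-values measure the spread between these libraries.

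Nearly all mitochondrial proteins are encoded in the nucleus, made in the cytosol and carried in through the TOM complex, whose receptors bind the incoming protein and whose channel passes it across the outer membrane. Behind it, the TIM23 complex and its ATP-driven motor take proteins with a cleavable presequence into the matrix. Small Tim chaperones of the intermembrane space ferry hydrophobic proteins, such as metabolite carriers, to the TIM22 complex, which inserts them into the inner membrane. In macrophages, LPS is known to move metabolism away from respiration.

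The small Tim chaperones are recognised by a pair of cysteine motifs, each with 2 cysteines separated by 3 other residues, that form disulfide bonds after import. All 7 small Tim members had 2 such motifs in the coding sequence of their principal GENCODE M21 transcript. The coding sequences of the partners Timm8a1 and Timm13 and of the partners Timm9 and Timm10 are shown without their stop codon, because each pair works as one complex, with the 4 cysteine codons in capitals. Both motifs are separated by 14 codons in Timm8a1 and Timm13, by 15 in Timm9 and by 16 in Timm10.
Timm8a1: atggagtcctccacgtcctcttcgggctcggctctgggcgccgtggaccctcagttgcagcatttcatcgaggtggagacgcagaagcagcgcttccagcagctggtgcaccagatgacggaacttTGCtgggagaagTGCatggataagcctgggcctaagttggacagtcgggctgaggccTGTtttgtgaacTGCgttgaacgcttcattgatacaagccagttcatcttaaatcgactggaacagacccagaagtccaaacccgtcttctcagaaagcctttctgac
Timm13: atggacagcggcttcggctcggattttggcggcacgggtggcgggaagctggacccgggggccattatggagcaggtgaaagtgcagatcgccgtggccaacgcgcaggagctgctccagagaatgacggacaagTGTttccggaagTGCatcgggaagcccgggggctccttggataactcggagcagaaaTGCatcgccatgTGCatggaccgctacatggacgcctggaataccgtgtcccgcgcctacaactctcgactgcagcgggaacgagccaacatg
Timm9: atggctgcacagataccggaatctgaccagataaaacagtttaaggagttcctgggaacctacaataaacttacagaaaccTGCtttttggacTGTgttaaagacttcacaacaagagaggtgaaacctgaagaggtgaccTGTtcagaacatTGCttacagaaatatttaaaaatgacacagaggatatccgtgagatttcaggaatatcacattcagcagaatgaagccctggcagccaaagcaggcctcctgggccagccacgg
Timm10: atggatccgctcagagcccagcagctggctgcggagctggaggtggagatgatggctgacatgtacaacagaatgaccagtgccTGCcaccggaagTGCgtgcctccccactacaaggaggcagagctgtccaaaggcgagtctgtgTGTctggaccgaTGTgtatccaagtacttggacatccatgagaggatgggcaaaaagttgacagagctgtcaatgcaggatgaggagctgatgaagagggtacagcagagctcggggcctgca

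Promoters were searched for 2 cores known from nuclear genes of mitochondrial proteins, on both strands, from 250 bases before to 50 bases after each RefSeq transcript start (GRCm38.p6). The first was CGCATGCG, the centre of the site of the factor NRF1, and the second CCGGAAG, a core bound by ETS family factors such as GABPA. Of the 25 members, 22 had a promoter there, and 9 of these held the ETS core. They were 6 of 14 Timm genes (42.9%) and 3 of 8 Tomm genes (37.5%), against 21.6% of 8886 genes with at least 10 reads a library on average. The NRF1 core was in 1 member, Timm13, against 4.68% of the same genes. The members were not filtered by reads, and Timm8a2, among the 9 with the ETS core, had 0 to 2 counts per library. The promoters of Timm13, with the largest rise under TMM scaling, of Tomm22, which has 3 ETS cores, and of Timm29, the member with the largest fall, are shown with the cores in capitals. Timm10, not shown, also has 3 ETS cores, which begin at -16, 13 and 16. In Timm13 (chr10:80900920-80901219, minus strand) the NRF1 core begins at position -193 from the start. In Tomm22 (chr15:79670618-79670917, plus strand) the ETS cores begin at -47, -44 and 5, and the first 2 overlap on opposite strands. In Timm29 (chr9:21592472-21592771, plus strand) an ETS core begins at -212.
Timm13: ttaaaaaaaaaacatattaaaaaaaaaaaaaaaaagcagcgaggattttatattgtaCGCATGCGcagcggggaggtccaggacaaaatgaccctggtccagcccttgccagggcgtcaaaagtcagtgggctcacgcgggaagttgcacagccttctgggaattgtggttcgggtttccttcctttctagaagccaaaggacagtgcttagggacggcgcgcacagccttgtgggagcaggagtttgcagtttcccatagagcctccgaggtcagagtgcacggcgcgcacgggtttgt
Tomm22: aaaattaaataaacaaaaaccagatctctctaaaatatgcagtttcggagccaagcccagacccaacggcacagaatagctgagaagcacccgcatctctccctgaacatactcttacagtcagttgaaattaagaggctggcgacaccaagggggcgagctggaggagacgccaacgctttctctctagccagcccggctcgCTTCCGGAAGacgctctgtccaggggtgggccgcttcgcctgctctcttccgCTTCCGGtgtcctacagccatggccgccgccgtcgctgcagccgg
Timm29: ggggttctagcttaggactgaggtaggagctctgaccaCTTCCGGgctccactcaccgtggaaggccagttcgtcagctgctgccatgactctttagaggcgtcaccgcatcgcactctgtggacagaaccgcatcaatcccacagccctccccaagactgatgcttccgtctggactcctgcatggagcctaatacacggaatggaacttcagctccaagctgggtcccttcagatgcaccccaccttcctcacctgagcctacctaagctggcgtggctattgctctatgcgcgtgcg
Of the 8 tested members with the ETS core 6 rose and 2 fell with TMM scaling. Among all 22 tested members 18 rose and 3 fell, and of all tested genes 37.5% were higher and 38% lower. After correction for length and GC content 2 of the 8 were higher and 4 lower, against 35.4% and 36.1% of all tested genes. Of these 4, Timm8b, Timm10 and Timm23 were higher with TMM scaling. A match of letters does not show binding.

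Total counts ran from 17716460 to 22539884 per library, and 11103 genes passed the expression filter. In edgeR's quasi-likelihood test 75.5% of these were called at an adjusted p of 0.05, 37.5% higher and 38% lower with co-culture, so a call alone sets a gene little apart. With library totals in place of TMM scaling, 3222 genes were higher and 5184 lower, against 4160 and 4222 with it. The 10 macrophage markers were all detected in every library, with a summed level of 26165 to 29028 CPM (counts scaled to library size) in co-culture and 16801 to 17226 CPM with LPS alone. Most of that sum was Lyz2 and Cd14. Of the 10, 6 rose, Ptprc was 1.90-fold lower and Adgre1, Csf1r and Itgam were not called, and with length and GC content corrected for 4 were higher and 2 lower. The 15 stromal markers summed to 19.5 to 22.5 CPM in co-culture and 12.7 to 14.3 CPM with LPS alone, most of it from Acta2. Only 3 of the 15 were tested, and they did not move together. Acta2 was 1.80-fold higher (adjusted p 3.43e-05), Lum was 2.65-fold lower (adjusted p 0.0111) and Dcn was not called (log2 -0.03, adjusted p 0.908). With length and GC content corrected for, 2 were higher and Lum was lower. Acta2 averaged 18.3 CPM with co-culture, against 10.2 CPM without it, so the larger sum rests mainly on this gene. Col1a2, Col3a1, Thy1, Postn, Cxcl12 and Twist1 were at 0 in all 6 libraries. In bulk RNA, a change in the mix of cells and a change of RNA per cell cannot be told apart.

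Levels below are FPKM after TMM scaling, that is counts per kilobase of gene length, relative to the scaled size of the library, so that genes can be compared with each other. Gene length is the total of all annotated exon bases, so a gene that mainly uses a short transcript reads lower than it would per transcript. Of the 25 members, 22 passed the filter, 14 Timm and 8 Tomm genes. Among those 22, 18 were higher with co-culture, 3 were lower and 1 was not called. Of all tested genes 37.5% were higher and 38% lower. The co-culture and LPS libraries did not overlap for 20 of the 22, or 90.9%, against 80.2% of all tested genes. The 3 members that did not pass the filter were near 0. Timm8a2 had 2, 0 and 1 counts in co-culture and 2, 0 and 2 counts with LPS alone, Tomm6 had 2, 0 and 1 counts in co-culture and 2, 0 and 0 with LPS alone, and Tomm20l had 0 in every library. Tomm6, a small TOM subunit, shares 952 of its 1131 exon bases with other annotated genes, so its low count may not measure its mRNA. Timm8a2 is identical to Timm8a1 at 77.3% of 291 coding bases.

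On the inner membrane side 12 of 14 tested genes rose, Timm29 fell and Timm21 was not called, with a median log2 fold change of 0.58, against 0.001 over all tested genes. On the outer membrane side 6 of 8 rose, and Tomm70a and Tomm40l fell, with a median of 0.39. These counts stand against 37.5% of all tested genes higher and 38% lower. With library totals 10 Timm genes were higher and 1 lower, and 5 Tomm genes higher and 2 lower. Of all 11103 tested genes, 3222 were higher and 5184 lower with library totals. In co-culture the levels ran from 127 FPKM for Timm8b down to 0.788 FPKM for Timm10b. Timm8b, Tomm5, Timm13, Tomm7 and Timm23 led that order, and the co-culture libraries of Timm13, Tomm7 and Timm23 overlapped. The plot of levels shows each library.

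**Figure D1:**
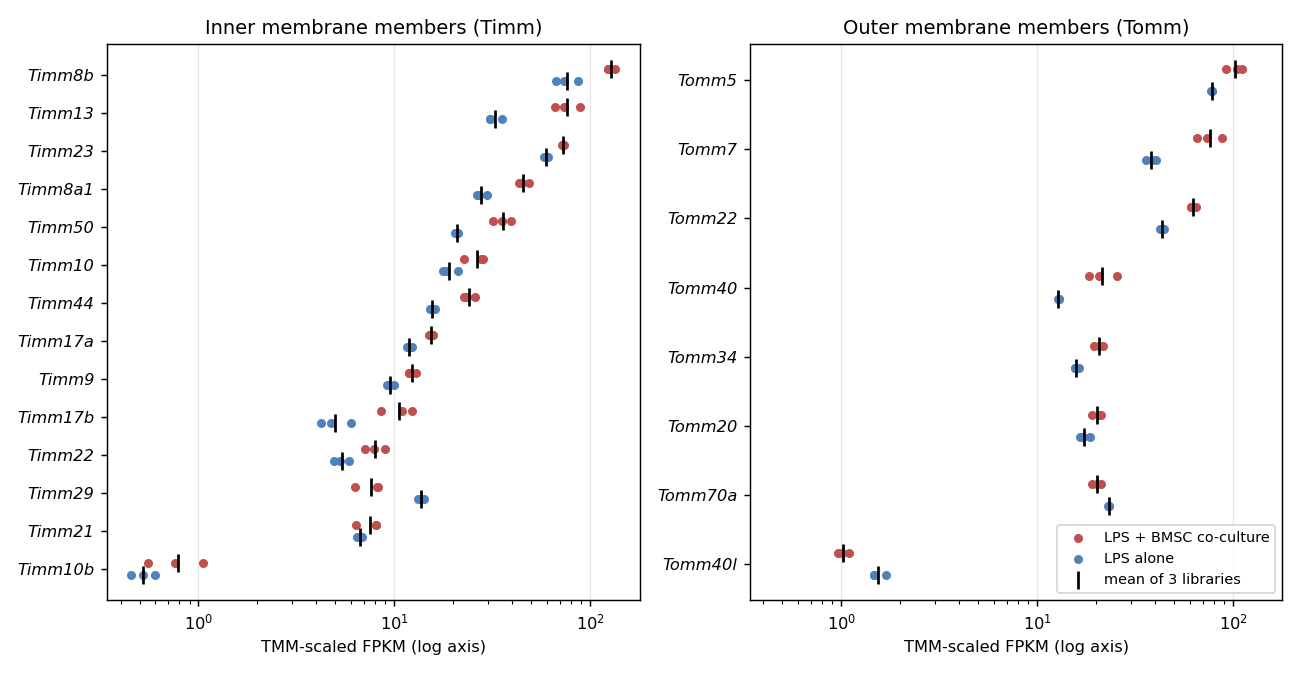
TMM-scaled FPKM (log axis) of the 14 tested Timm and 8 tested Tomm genes in each library, with co-culture in red above LPS alone in blue and the mean of 3 libraries as a black tick. The groups overlap only for Timm21 and Timm10b, and Timm29, Tomm70a and Tomm40l are the genes that lie lower in co-culture.

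Among the 5 genes of the TIM23 channel and its receptor, 4 rose with TMM scaling, of which Timm23 was lower after correction for length and GC content. Timm17b, a channel subunit whose paralog is Timm17a, had 12.3, 10.9 and 8.55 FPKM in co-culture, against 6.02, 4.74 and 4.23 FPKM with LPS alone. All co-culture libraries were above all LPS libraries, and it rose 2.13-fold (log2 1.09, SE 0.16, adjusted p 0.000125). Timm17a had 15.7, 15.7 and 15.0 FPKM in co-culture and 11.7, 11.9 and 12.2 FPKM with LPS alone. Its replicates lay close together and it rose 1.30-fold (log2 0.37, SE 0.05, adjusted p 0.000111). Timm50, the receptor that hands presequences from TOM to TIM23, had 39.6, 35.4 and 32.0 FPKM in co-culture, against 21.2, 20.4 and 20.6 FPKM with LPS alone. It was 1.72-fold higher (log2 0.78, SE 0.08, adjusted p 1.2e-05), and its co-culture libraries spread more than its LPS libraries. Timm23, the channel protein itself, had 73.8, 71.4 and 72.4 FPKM in co-culture and 57.7, 60.9 and 60.04 FPKM with LPS alone. Without overlap, it was 1.22-fold higher (log2 0.28, SE 0.05, adjusted p 0.00062), a call lost with library totals in place of TMM (log2 0.11, adjusted p 0.091) and on FPKM as deposited (log2 0.11, adjusted p 0.0667). Timm21, which links TIM23 to TOM and to the respiratory chain, had 6.37, 8.07 and 8.05 FPKM in co-culture and 6.81, 6.43 and 6.72 FPKM with LPS alone. Co-culture replicate 1 lay below every LPS library and the other two above, with a log2 fold change of 0.17 (SE 0.10, adjusted p 0.142). Without that library it was 0.29, with an adjusted p of 0.000673.

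Timm44, the arm that tethers the matrix motor to the channel, rose. It had 25.8, 23.6 and 22.7 FPKM in co-culture, against 15.4, 16.1 and 15.2 FPKM with LPS alone. The groups stood well apart and the fold was 1.54 (log2 0.63, SE 0.07, adjusted p 1.56e-05).

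The 2 tested genes of the TIM22 carrier translocase moved in opposite directions. Timm22, its channel, had 8.92, 7.83 and 7.08 FPKM in co-culture and 5.90, 5.29 and 4.93 FPKM with LPS alone, and rose 1.48-fold without overlap (log2 0.57, SE 0.11, adjusted p 0.000736). Timm29, a subunit of the human TIM22 complex that contacts TOM, had 6.28, 8.27 and 8.19 FPKM in co-culture, against 14.2, 13.2 and 13.7 FPKM with LPS alone. Every co-culture library was lower, co-culture replicate 1 the lowest, and Timm29 was 1.81-fold lower (log2 -0.86, SE 0.10, adjusted p 3.81e-05). It shares 107 of its exon bases with Yipf2 on the opposite strand, and the sources used here do not say whether counting used strand.

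All 6 tested small Tim chaperone genes were higher with TMM scaling, but once length and GC content were corrected for, 3 were higher, Timm8b and Timm10 were lower and Timm10b was not called. Timm13, which works in a complex with Timm8 proteins, had 88.9, 73.5 and 66.1 FPKM in co-culture, against 35.6, 30.9 and 30.9 FPKM with LPS alone. With TMM scaling that was the largest fold of any member, 2.35 (log2 1.23, SE 0.11, adjusted p 5.51e-06), and co-culture replicate 1 stood highest. Timm8a1, whose human counterpart is mutated in deafness-dystonia syndrome, had 48.5, 44.8 and 43.4 FPKM in co-culture and 29.7, 26.5 and 27.2 FPKM with LPS alone. It was 1.64-fold higher, without overlap (log2 0.72, SE 0.07, adjusted p 1.21e-05). Timm8b, its paralog and the most abundant member in co-culture, had 134, 124 and 123 FPKM in co-culture and 66.6, 86.7 and 73.7 FPKM with LPS alone. The LPS libraries were the more spread here, and the fold was 1.68 (log2 0.75, SE 0.09, adjusted p 5.11e-05). Timm9 and Timm10 form the core of the carrier chaperone complex. Timm9 had 12.9, 11.9 and 11.9 FPKM in co-culture and 9.34, 9.22 and 9.94 FPKM with LPS alone, a 1.29-fold rise (log2 0.36, SE 0.07, adjusted p 0.000629). Timm10 had 27.8, 28.5 and 22.6 FPKM in co-culture and 17.8, 21.2 and 18.2 FPKM with LPS alone, a 1.38-fold rise (log2 0.46, SE 0.11, adjusted p 0.00367), with co-culture replicate 3 close to the highest LPS library. Timm10b, which docks that complex at TIM22, was near 1 FPKM, with 1.06, 0.758 and 0.551 FPKM in co-culture and 0.518, 0.598 and 0.455 FPKM with LPS alone. It shares 792 of its 3582 exon bases with other annotated genes. The groups overlapped, and its log2 fold change of 0.60 (SE 0.25, adjusted p 0.0492) passed narrowly. The call was lost without any 1 LPS library (adjusted p 0.0593 to 0.155), without co-culture replicate 1 (log2 0.34, adjusted p 0.188) or replicate 2 (0.0853), with library totals (0.137) and with DESeq2 (0.0609).

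With TMM scaling, of the 3 tested TOM receptors 2 rose and Tomm70a fell, while with the trend of length and GC content removed all 3 were higher. Tomm22, the central receptor that also holds the complex together, had 61.3, 64.3 and 61.0 FPKM in co-culture, against 44.6, 43.3 and 42.3 FPKM with LPS alone. Its groups were separate and tight, and it rose 1.44-fold (log2 0.52, SE 0.06, adjusted p 1.56e-05). Tomm20, the presequence receptor, had 19.1, 21.1 and 20.7 FPKM in co-culture and 17.2, 18.5 and 16.5 FPKM with LPS alone. The nearest libraries of the 2 groups lay close, and it was 1.17-fold higher (log2 0.22, SE 0.07, adjusted p 0.0113). That call was lost with library totals (log2 0.05, adjusted p 0.59), on FPKM as deposited (0.04, adjusted p 0.595) and without LPS replicate 1 (adjusted p 0.052) or replicate 3 (0.07). Tomm70a, the receptor for carrier proteins and a docking site for cytosolic chaperones, had 19.0, 20.1 and 21.3 FPKM in co-culture and 23.3, 23.1 and 23.2 FPKM with LPS alone. Each co-culture library was below each LPS library, and it was 1.15-fold lower (log2 -0.20, SE 0.06, adjusted p 0.00796).

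The channel genes of TOM also went opposite ways. Tomm40, the pore, had 25.5, 20.8 and 18.4 FPKM in co-culture, against 12.7, 12.9 and 13.0 FPKM with LPS alone. Co-culture replicate 1 was highest, and the fold was 1.68 (log2 0.75, SE 0.10, adjusted p 0.000109). Tomm40l, its less abundant paralog, had 1.01, 1.10 and 0.965 FPKM in co-culture and 1.68, 1.47 and 1.47 FPKM with LPS alone, and was 1.503-fold lower (log2 -0.59, SE 0.12, adjusted p 0.000995). It shares 3304 of its 5135 exon bases with Nr1i3, which had at most 1 count in any library. How reads in shared bases were counted is not stated, so the FPKM of Tomm40l may not measure its mRNA in full.

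Both tested small TOM subunits rose with TMM scaling, but Tomm5 was lower (log2 -0.38) after correction for length and GC content. Tomm7, which affects the stability of the complex and of the kinase PINK1 in human cells, had 88.3, 73.8 and 65.6 FPKM in co-culture, against 38.4, 40.2 and 35.8 FPKM with LPS alone. The groups were far apart and the fold was 1.99 (log2 0.99, SE 0.10, adjusted p 1.52e-05). Tomm5 had 112, 105 and 92.0 FPKM in co-culture and 78.3, 77.2 and 78.1 FPKM with LPS alone, a 1.32-fold rise without overlap (log2 0.40, SE 0.07, adjusted p 0.000688). Tomm34, a cytosolic co-chaperone of preproteins despite its name, had 21.7, 19.6 and 20.7 FPKM in co-culture and 16.3, 15.6 and 15.5 FPKM with LPS alone, a 1.31-fold rise (log2 0.39, SE 0.06, adjusted p 0.000312).

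In GRCm38 coordinates of GENCODE M21, Timm13 (ENSMUSG00000020219) lies on chromosome 10 from 80899450 to 80900969 and Timm29 (ENSMUSG00000048429) on chromosome 9 from 21592722 to 21595970. Tomm7 (ENSMUSG00000028998) lies on chromosome 5 from 23838944 to 23844161, Tomm40 (ENSMUSG00000002984) on chromosome 7 from 19701313 to 19715438 and Tomm40l (ENSMUSG00000005674) on chromosome 1 from 171216011 to 171222514. Timm17a (ENSMUSG00000062580) lies on chromosome 1 from 135295213 to 135313778 and Timm17b (ENSMUSG00000031158) on chromosome X from 7899357 to 7908351. All are protein-coding genes there, and counts are per gene.

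Fold changes in these libraries ran with gene length, and the members have to be read against that. Over all 11103 tested genes the fold change was higher in shorter genes (Pearson r = -0.45 with log2 length) and in genes of higher GC content (r = 0.37), and over the 22 tested members the same values were -0.44 and 0.27. These correlations are across genes, which share the 6 libraries. In the shortest quintile of tested genes, up to 2531 bases, the median log2 fold change was 0.58, and that of its 8 members was 0.62. For the second quintile the medians were 0.58 for 8 members and 0.24 for all its genes, and for the third 0.29 for 4 members and -0.02 for all its genes. In the quintile with the longest genes, from 7603 bases, its 2 members Timm17a and Tomm70a had a median of 0.09, against -0.55 for all its genes.

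**Figure D2:**
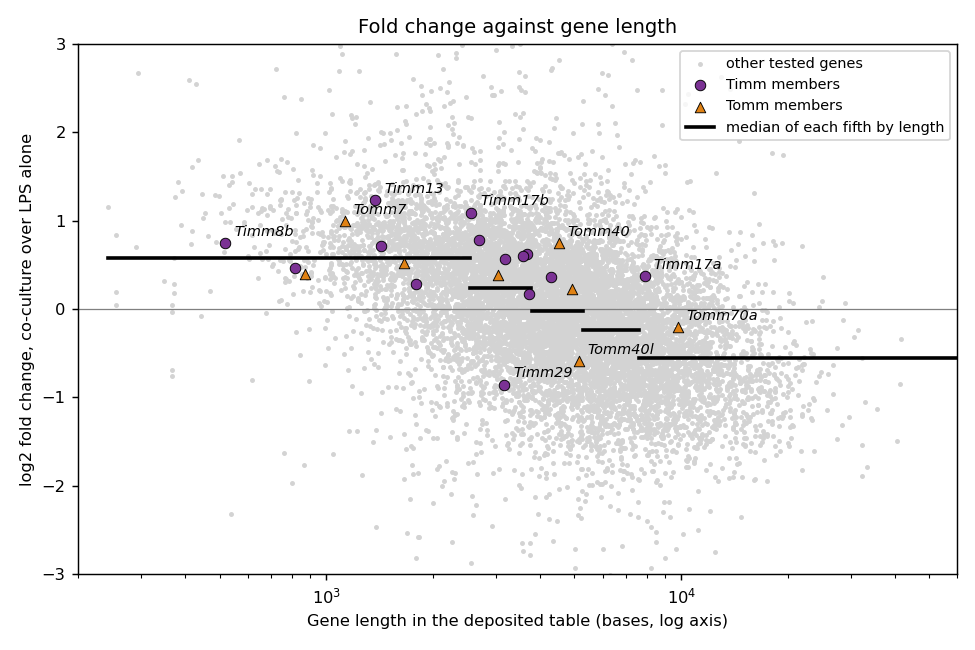
Log2 fold change of co-culture over LPS alone against gene length (bases, log axis) for tested genes, with Timm genes as circles, Tomm genes as triangles and the median of each quintile of genes by length as a black line. Medians fall with length, short members such as Timm8b lie near their line, and Timm17a lies above and Timm29 below theirs. Of the tested genes, 87 lie outside the axes.

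Removing the trend of each library with length and GC content changed which members were called, as the plot of fold changes shows. On that scale 35.4% of all tested genes were higher and 36.1% lower. Of the 14 tested Timm genes, 9 were higher and 4 lower (median log2 0.37), and of the 8 tested Tomm genes, 5 were higher and 2 lower (median 0.35). Of the 8 members in the shortest quintile 4 turned to lower: Timm8b (518 bases) had a log2 fold change of -0.54 (adjusted p 8.86e-05), Timm10 (815 bases) -0.61 (0.000172), Tomm5 (868 bases) -0.38 (0.000122) and Timm23 (1786 bases) -0.15 (0.00933). The other 4, Tomm7 (1125 bases, 0.53), Timm13, Timm8a1 (0.17) and Tomm22 (0.21), stayed higher. The longest member, Tomm70a (9777 bases), turned to higher, at 0.55 (adjusted p 1.15e-06). Tomm34 was not called (log2 -0.002, adjusted p 0.982), and Timm10b lost its call (0.56, adjusted p 0.0657). Timm13 kept a rise of 0.38 (adjusted p 0.000277), well under its 1.23 without the correction. Timm17a rose by 0.95 (adjusted p 4.91e-07), Timm9 by 0.64 (1.91e-05), Tomm20 by 0.49 (1.16e-05) and Timm21 by 0.46 (0.00013), each more than without it. Timm29 at -1.11 (adjusted p 2.39e-06) and Tomm40l at -0.63 (0.000383) remained lower. Whether the trend comes from the cells or from the libraries was not tested.

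**Figure D3:**
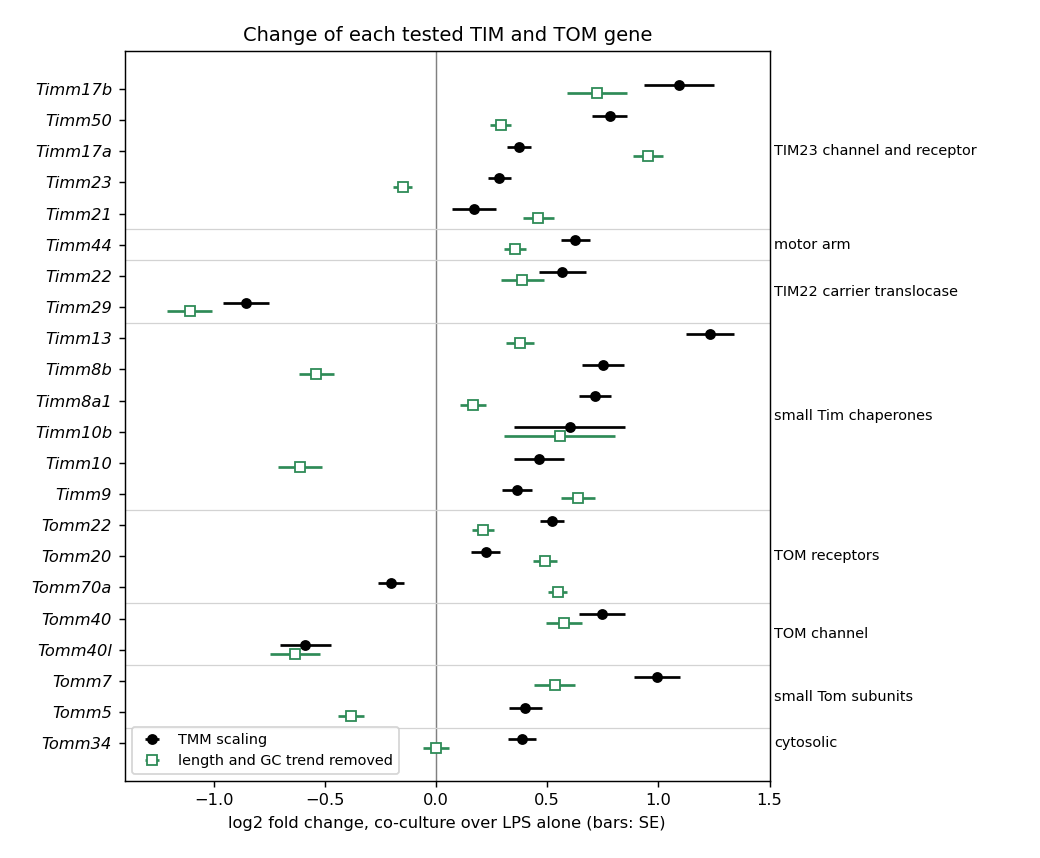
Log2 fold change of co-culture over LPS alone (bars, SE) of the 22 tested genes by role, with TMM scaling (black circles) and with the trend of length and GC content removed (open green squares). Timm29 and Tomm40l are below 0 on both scales, while Timm8b, Timm10, Tomm5 and Timm23 are above 0 only with TMM scaling and Tomm70a only with the trend removed.

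Across all 17 alternative settings 11 of the 22 tested members kept their direction and their call. The share of all tested genes that did so was not computed, so this count does not set the members apart. The members that kept both are named next. They were the rises of Timm13, Timm17a, Timm17b, Timm22, Timm44, Timm50, Timm9, Tomm40 and Tomm7 and the falls of Timm29 and Tomm40l.

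Co-culture libraries differed among themselves in these genes, as they did in others. Of the 18 members that rose, 15 were highest in co-culture replicate 1 and 14 lowest in replicate 3. Over all 4160 genes called higher the order was much the same, with 76.7% highest in replicate 1 and 63.1% lowest in replicate 3, against 83.3% and 77.8% of the members. Measured from the mean of log values in co-culture, the median of replicates 1, 2 and 3 was 0.10, -0.02 and -0.12 for the members that rose and 0.11, -0.03 and -0.08 for all genes called higher. Without co-culture replicate 1, 12 Timm genes were called higher and 1 lower, and 6 Tomm genes higher and 2 lower. The 12 were not the same genes, as Timm10b lost its call and Timm21 gained one.

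Paralogs were compared by the ratio of their FPKM within each library, which no scaling of whole libraries can move, although a correction for gene length can. The ratio of Timm17a to Timm17b was 1.28, 1.43 and 1.76 in co-culture, against 1.94, 2.50 and 2.90 with LPS alone. Every co-culture ratio was the lower, and the mean log2 ratio was 0.56 ± 0.23 in co-culture and 1.27 ± 0.29 with LPS alone (SD, n = 3 each), a difference of -0.71 (two-sided exact permutation p = 0.1, 0.2 adjusted over the 4 pairs). The ratio of Tomm40 to Tomm40l was 25.3, 18.9 and 19.0 in co-culture and 7.55, 8.74 and 8.80 with LPS alone. Here co-culture was higher throughout, with a difference in mean log2 ratio of 1.32 (two-sided exact permutation p = 0.1, 0.2 adjusted). The size of this ratio depends on how reads in the bases that Tomm40l shares with Nr1i3 were counted. With 3 libraries against 3, the smallest p this test can give is 0.1. Timm8a1 to Timm8b gave 0.361, 0.362 and 0.352 in co-culture and 0.446, 0.305 and 0.369 with LPS alone, and the groups overlapped (difference -0.04, exact permutation p = 0.7). Timm10 to Timm10b gave 26.3, 37.6 and 41.0 in co-culture and 34.3, 35.5 and 40.1 with LPS alone, also overlapping (difference -0.09, exact permutation p = 0.9). The paralogs differ in length, and once length and GC content were corrected for, the fold change of Timm17a (log2 0.95) was above that of Timm17b (0.72), opposite to the ratio. For Tomm40 (0.58) and Tomm40l (-0.63) the order was the same on both scales. Timm8a1 (0.17) and Timm8b (-0.54) were apart on the corrected scale, as were Timm10 (-0.61) and Timm10b (0.56), although their uncorrected ratios overlapped. No test of these corrected differences was made.

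**Figure D4:**
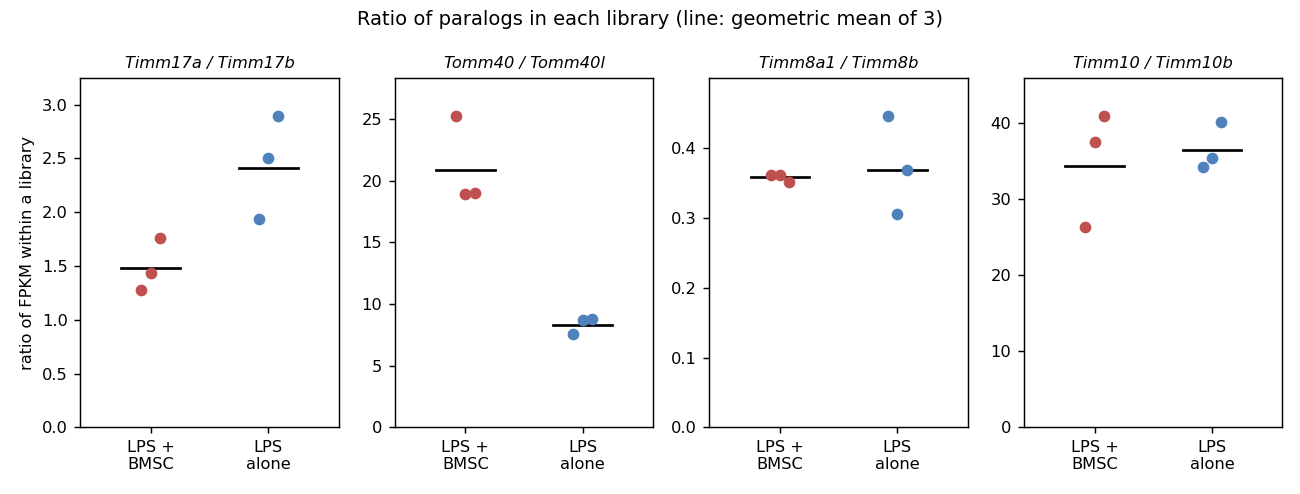
Ratio of FPKM of 4 paralog pairs in each library, with co-culture in red on the left, LPS alone in blue on the right and the geometric mean as a line. The groups are apart for Timm17a to Timm17b and for Tomm40 to Tomm40l, and overlap for the other two pairs. No correction for gene length was made, and the order of Timm17a and Timm17b turns with it.

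Of 29 other genes of mitochondrial protein import, all tested, 15 rose, 8 fell and 6 were not called. The 79.3% called is near the 75.5% of all tested genes. The list had a median log2 fold change of 0.21. After removal of the length and GC trend, 16 rose and 7 fell (median 0.18). Grpel1, the nucleotide exchange factor of the matrix Hsp70 motor, had 32.8, 30.7 and 29.9 FPKM in co-culture, against 18.8, 18.8 and 18.3 FPKM with LPS alone, and rose 1.67-fold (adjusted p 2.88e-06, log2 0.74 on both scales). Of the 8 genes grouped here with the presequence motor, Romo1 among them, 6 rose with TMM scaling, against 37.5% of all tested genes. Dnajc15 rose 1.69-fold (adjusted p 5.66e-06). The calls of Romo1 and Dnlz were lost after correction for length and GC content (log2 -0.06 and 0.10, adjusted p 0.477 and 0.253). Hspa9, the Hsp70 itself, had a log2 fold change of 0.01 (SE 0.06, adjusted p 0.849). It was called higher after that correction (0.18, adjusted p 0.00304) and lower with library totals (-0.17, adjusted p 0.0283). Samm50, the core of the complex that sorts barrel proteins into the outer membrane, had 23.5, 19.7 and 20.2 FPKM in co-culture and 12.1, 12.1 and 12.1 FPKM with LPS alone, a 1.75-fold rise (adjusted p 6.37e-06). Mtx3, a metaxin of the same sorting machinery, was 2.41-fold lower, with 1.35, 1.42 and 1.66 FPKM in co-culture and 3.40, 3.68 and 3.58 FPKM with LPS alone (adjusted p 2.4e-06). Agk, a lipid kinase that is also a subunit of the human TIM22 complex, had 0.752, 0.971 and 1.03 FPKM in co-culture, against 1.70, 1.67 and 1.91 FPKM with LPS alone, and fell 1.92-fold (adjusted p 5.78e-05). With the trend removed its log2 fold change was -0.18 (adjusted p 0.0844). Agk, Hspa9, Romo1 and Dnlz, and Pam16 in the plot, were named after their values were seen. Of the 7 peptidases that trim or degrade presequences, 1 rose and 3 fell with TMM scaling, against 37.5% and 38% of all tested genes.

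**Figure D5:**
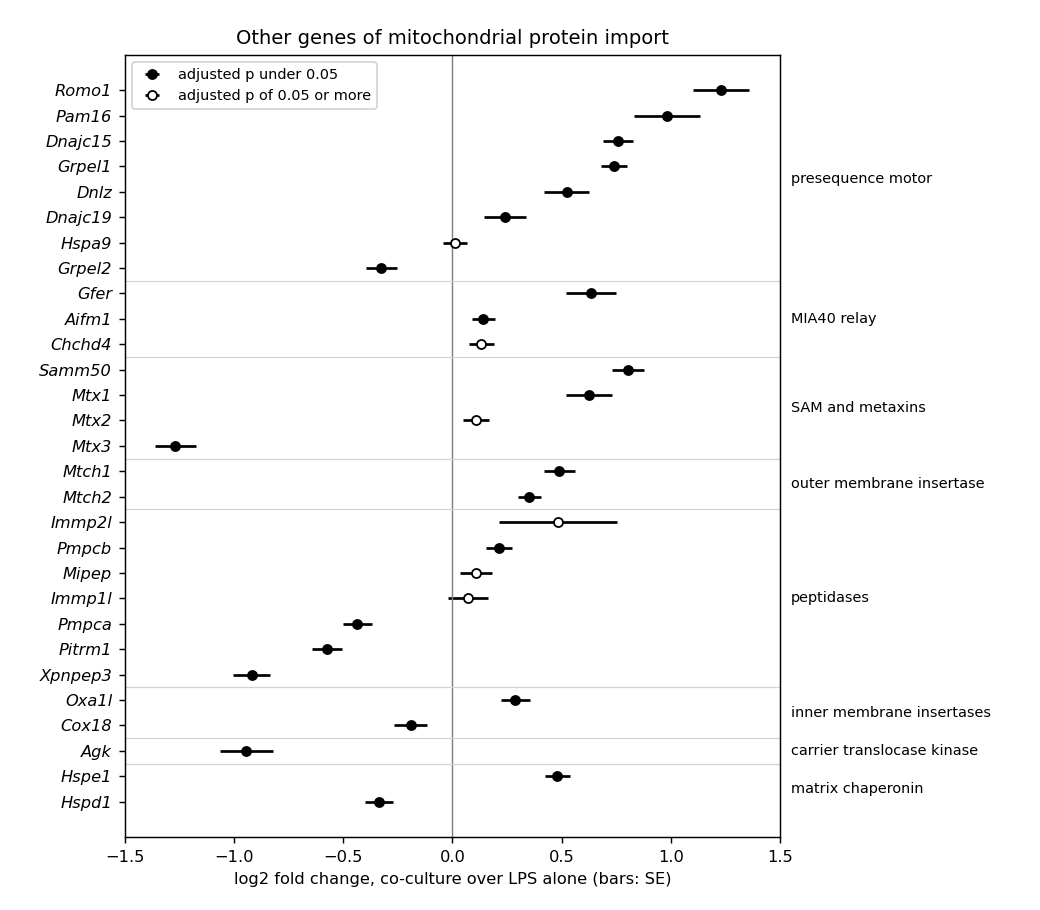
Log2 fold change of co-culture over LPS alone (bars, SE) of 29 other genes of mitochondrial protein import by role, filled where the adjusted p is under 0.05. Romo1 and Pam16 lie furthest to the right and Mtx3 furthest to the left. The call of Romo1 is lost after correction for length and GC content (log2 -0.06, adjusted p 0.477).

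Lists of neighbouring function give the setting, read against 37.5% of all tested genes higher and 38% lower with TMM scaling, and 35.4% and 36.1% once length and GC content were corrected for. Of 77 tested mitochondrial ribosomal protein genes 69 rose and 1 fell with TMM scaling (median log2 0.60), and 45 were higher and 15 lower on the corrected scale (0.28). Of 45 tested genes with Nduf symbols, which include complex I subunits and the Ndufaf assembly factors, 41 rose and 3 fell (0.80). On the corrected scale 22 of them were higher and 8 lower (0.16). Of 11 tested mitochondrially encoded mRNAs, 4 rose and 2 fell (0.29), and 2 were higher and 5 lower on the corrected scale (-0.21). Genes for mitochondrial mass and biogenesis gave 3 higher and 5 lower of 15 (-0.04), and 5 and 5 on the corrected scale (-0.06). Polg, the mitochondrial DNA polymerase, was 1.69-fold lower, Tfb2m, a mitochondrial transcription factor, 1.64-fold lower, the coactivator Ppargc1b 1.70-fold lower and Gabpa 1.499-fold lower. The fall of Gabpa was not called with the trend removed (log2 -0.09, adjusted p 0.171). Of 13 mitochondrial stress genes 6 rose and 5 fell (0.07), and 7 were higher and 3 lower on the corrected scale (0.19). The stress transcription factor Ddit3 was 3.86-fold and Atf4 1.81-fold higher, and the matrix proteases Clpp 1.81-fold and Lonp1 1.77-fold higher. The call of Clpp was lost with the trend removed (log2 -0.06, adjusted p 0.441). Genes named from the biogenesis and stress lists are the 4 of smallest adjusted p in each. The 5 stress genes that fell and the 3 biogenesis genes that rose are not among them, so the names do not stand for their lists.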

How the data were processed

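The 6 RNA-seq libraries, 3 of co-culture and 3 of LPS alone, were grouped by their titles; the title of LPS replicate 3 writes RAW264.9 while its tag says RAW264.7. Per the labels' protocols, libraries were made from poly(A) RNA with random primers and no named strand step. The authors deposited whole-number read counts and FPKM per gene; the FPKM are per kilobase of the table's length and relative to all counted reads. HISAT2 2.0.5 and mm10 are named, per the submitters' processing notes, and the sources used here give no counter, annotation or strand setting. The table's length equalled the exon bases of GENCODE M21 (GRCm38) for 21260 of 21850 matched genes, and gene positions are from M21, promoters from RefSeq.

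Counts were tested with the quasi-likelihood test of edgeR 4.0.16 in R 4.3.3, with robust estimation, TMM scaling, filterByExpr and group as the only term, on all genes, with calls at 0.05 after Benjamini-Hochberg adjustment. FPKM after TMM scaling was computed from the deposited counts. On simulated counts of 11040 genes the test recovered 79 of 100 changes of 1.5-fold and 89 of 100 of 2-fold. The simulation took its spread between libraries from the same fit, changed 200 genes and held no trend with length or GC content. Its rates therefore need not hold in these data. Every pair of replicates differed by more than sampling noise (chi-square per degree of freedom 1.71 to 26.8). The offset for length and GC content was fitted per library as natural splines (5 degrees of freedom per property). Named genes were all members and up to 4 genes of smallest adjusted p per other list. The members and lists were chosen with earlier results of these data known. Depth was 17716460 to 22539884 counts, so 3 counts are 0.133 to 0.169 CPM; such floors cover counting error only.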

Additional observations from a re-analysis of the deposited data

How the results depend on the processing

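Besides edgeR with TMM, the counts were fitted with RLE factors, library totals, DESeq2 1.42.0, limma 3.58.1 on log2(FPKM + 1) and log2(FPKM + 0.1), no filter, a minimum of 10 counts per library, a replicate block, each library left out, and offsets for length or for length and GC content. Over the 22 tested members, 329 alternative values kept direction and call, 19 lost the call, 3 gained it and 18 of a called member changed sign. Timm21, which was not called, was slightly below 0 in 3 others (library totals and both limma fits). Library totals moved the median over all tested genes to -0.18 on the log2 scale, and gave 38.3% of calls as higher, against 49.6% with TMM.

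With length and GC content removed 4 Timm genes were lower, also with the replicate block, and with length alone 7 were higher and 4 lower. With length alone, Timm10 was at -0.52, Timm8b at -0.51, Tomm5 at -0.55, Timm23 at -0.22, Tomm22 at -0.033 and Tomm70a at 0.28. With length and GC content the values were -0.61, -0.54, -0.38 and -0.15 for Timm10, Timm8b, Tomm5 and Timm23, -0.0016 for Tomm34 and 0.55 for Tomm70a, and with the replicate block added -0.61, -0.53, -0.39, -0.15, -0.0022 and 0.55. The cause of these changes was not tested.

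Leaving out each library gave 11 to 12 Timm genes higher and 1 lower, 5 to 6 Tomm genes higher and 2 lower, 13 to 17 of the other import genes higher and 7 to 8 lower, and 3810 to 4300 of all genes higher and 3924 to 4274 lower. The log2 ratio difference ranged from -0.87 to -0.58 for Timm17a to Timm17b, from 1.19 to 1.39 for Tomm40 to Tomm40l, from -0.18 to 0.09 for Timm8a1 to Timm8b (0.093 without LPS replicate 1) and from -0.22 to 0.10 for Timm10 to Timm10b (0.103 without co-culture replicate 1). Same-numbered libraries did not deviate together (r = -0.04, -0.02 and 0.04). That cannot exclude a pairing, as co-culture libraries differed far more among themselves (chi-square per degree of freedom 5.16 to 26.8) than LPS libraries (1.71 to 2.11). With the replicate block 12 Timm genes were higher and 1 lower, 6 Tomm genes higher and 2 lower, and no member lost its call. Timm10b could not be fitted by limma, as its mean FPKM is under 1. Genes near 1 FPKM, such as Timm10b with 35 to 76 counts, have the least precise values.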
